A study of Homo sapiens with 10 samples.

Results

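The genes described here were 40 interferon-stimulated and antigen presentation genes, taken by symbol from a list drawn up so as to ask whether vectors that carry a short hairpin RNA (shRNA) or an open reading frame leave an interferon trace in the cells that hold them. All 40 were among the 57353 symbols of the gene count table, and 36 passed the filter on low counts that left 17230 genes for testing. The cells were LNCaP-C4-2, a castration-resistant line derived from LNCaP prostate cancer cells, altered in the level of CPT1A, the mitochondrial enzyme that commits long-chain fatty acids to oxidation. Total RNA of 10 samples was sequenced as mRNA libraries. The 2 NT samples carried a scrambled, non-targeting shRNA, and the 3 KD samples carried an shRNA against CPT1A. The 2 EV samples carried an empty vector, and the 3 OE samples carried a CPT1A cDNA. All lines were transduced with lentivirus, and those of the shRNA arm were kept in 1 ug/ml puromycin and those of the cDNA arm in 5 ug/ml blasticidin ("Blasticin" in the labels), the controls included. No untransduced line was among the samples, so EV versus NT set 1 kind of vector against the other, and vector, drug and line cannot be told apart in it. The methods name 1 shRNA and 1 cDNA clone and no separate transductions, so p-values measure the spread between these samples, which may be technical.

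Type I interferons are secreted proteins that cells make when sensors such as RIG-I and MDA5 meet foreign RNA. They act through a receptor with the kinases JAK1 and TYK2, which phosphorylate STAT2, and this acts with IRF9 at interferon-stimulated response elements before the induced genes. The induced genes block viruses in the cell and raise the machinery that shows peptides on major histocompatibility complex (MHC) class I molecules. Double-stranded RNA is a known trigger of this pathway, and LNCaP cells are known for lacking functional JAK1.

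The stretches below show the letters such elements are made of, in 8 members that the results turn on, picked after their values were seen. Each is the 160 bases before the gene start, 5′ to 3′ along the gene, from RefSeq on build GRCh38.p14, and capitals mark every whole match of the element's core on either strand: GAAA, any 2 bases and GAAA again, or, for the other strand, TTTC, any 2 bases and TTTC.
IFITM1 (chr11:313880-314039, plus strand): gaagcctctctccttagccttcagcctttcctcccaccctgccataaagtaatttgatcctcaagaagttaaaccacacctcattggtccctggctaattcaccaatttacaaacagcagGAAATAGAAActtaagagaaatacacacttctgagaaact
IFITM3 (chr11:320861-321020, minus strand): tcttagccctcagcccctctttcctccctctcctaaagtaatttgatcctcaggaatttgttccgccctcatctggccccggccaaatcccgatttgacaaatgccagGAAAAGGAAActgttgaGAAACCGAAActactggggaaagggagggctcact
ISG15 (chr1:1013337-1013496, plus strand): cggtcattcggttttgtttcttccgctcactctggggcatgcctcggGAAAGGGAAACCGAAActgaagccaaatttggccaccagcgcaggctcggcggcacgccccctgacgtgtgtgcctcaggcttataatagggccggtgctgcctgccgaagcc
TAP1 (chr6:32853705-32853864, minus strand): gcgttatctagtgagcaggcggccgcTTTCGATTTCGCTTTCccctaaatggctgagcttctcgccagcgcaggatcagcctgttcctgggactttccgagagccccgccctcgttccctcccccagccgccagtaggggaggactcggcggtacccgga
OAS3 (chr12:112938314-112938473, plus strand): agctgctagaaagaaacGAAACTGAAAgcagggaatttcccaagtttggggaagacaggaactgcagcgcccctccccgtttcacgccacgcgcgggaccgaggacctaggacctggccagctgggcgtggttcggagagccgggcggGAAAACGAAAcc
BST2 (chr19:17405631-17405790, minus strand): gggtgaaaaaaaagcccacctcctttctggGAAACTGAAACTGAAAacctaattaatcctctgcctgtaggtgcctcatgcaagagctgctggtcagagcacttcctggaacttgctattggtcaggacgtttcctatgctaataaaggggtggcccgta
IFIT1 (chr10:89392463-89392622, plus strand): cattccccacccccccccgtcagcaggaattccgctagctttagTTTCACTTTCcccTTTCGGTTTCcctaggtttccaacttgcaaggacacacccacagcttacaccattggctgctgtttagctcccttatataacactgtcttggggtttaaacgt
IFIT3 (chr10:89327837-89327996, plus strand): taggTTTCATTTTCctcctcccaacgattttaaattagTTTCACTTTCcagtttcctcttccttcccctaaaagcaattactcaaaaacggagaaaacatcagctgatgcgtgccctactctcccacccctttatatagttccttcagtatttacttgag
Of the 31 members with a RefSeq promoter (250 bases before to 50 after the start), 21 held the core, or 67.7%, against 4.38% of the 27305 genes in the same table. By role, the core was in 11 of 12 matched IFIT and other effectors, both matched IFITM genes, 4 of 6 MHC class I and peptide loading genes and none of 4 matched kinase and transcription factor genes. The palindrome TTCNNNGAA, the core of the gamma interferon activated site, was in 9 of the 31 members, or 29%, and in 9.38% of all genes. A second match in IFITM1 crosses the gene start and is left in lower case. Genes with the same element differed in direction in what follows, as BST2, which fell in OE, and IFITM1, which rose there, show.

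**Figure D1:**
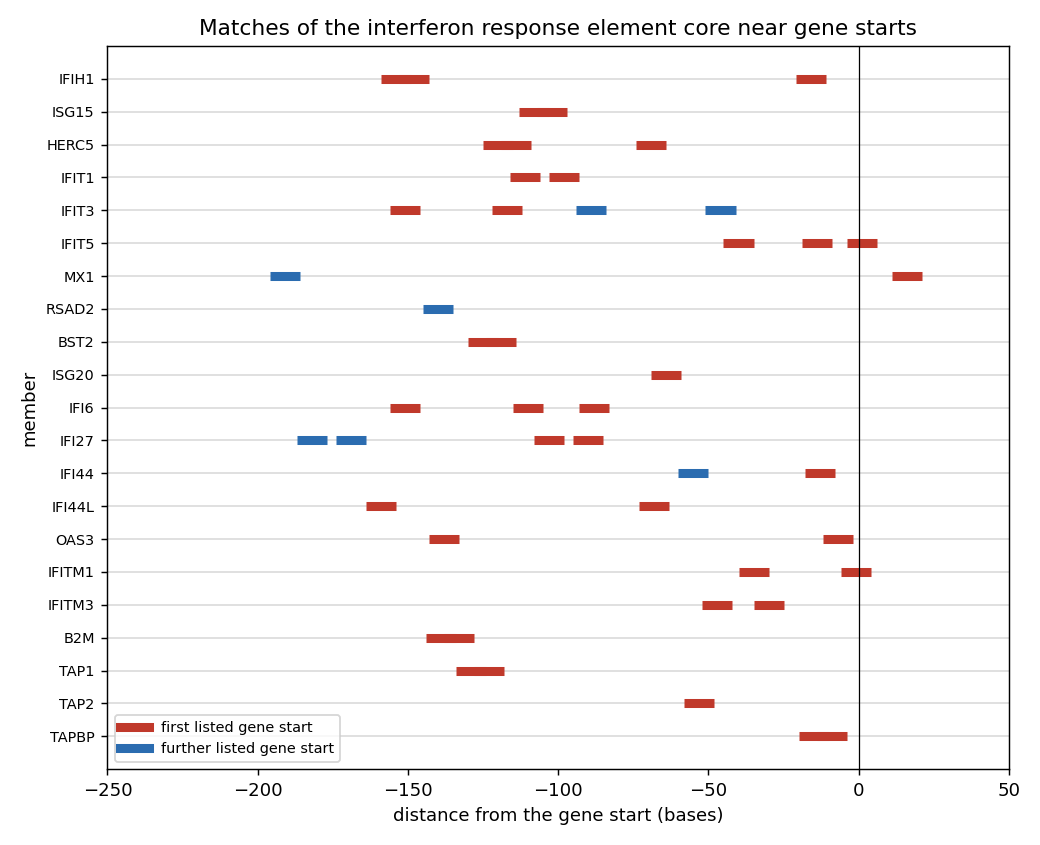
Position of each match of the interferon-stimulated response element core, on either strand, relative to the gene start (x axis, bases) in the 21 members that held one (rows). Red bars are at the first RefSeq start listed for a gene and blue bars at a further one, and most red bars lie within the 160 bases before the start.

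Each library held between 23555205 and 28615770 counts, so that 3 counts corresponded to 0.0995 to 0.136 CPM (counts scaled to a common library total, here with TMM factors). CPT1A checked the labels, at 262 to 265 CPM in NT, 81.2 to 86.4 in KD, 318 to 326 in EV and 861 to 914 in OE. All 11 markers of prostate epithelium were well above the filter in every line, led by KLK3, the gene of prostate-specific antigen. Of 13 leukocyte markers, 4 were at 0 in every sample, CD3E among them. PTPRC had 1 count in all, and the whole list summed to 1.27 to 1.58 CPM in NT, 0.398 to 0.592 in KD, 0.585 to 1.14 in EV and 0.181 to 0.558 in OE. Of 8 markers of stroma and endothelium, COL1A2 and PECAM1 were at 0 throughout, and 3 were tested. COL1A1, a fibrillar collagen, had 217 to 440 counts a sample and rose in KD (log2 fold change ± SE 0.63 ± 0.10, edgeR adjusted p = 9.67e-06) and in OE (0.35 ± 0.11, edgeR adjusted p = 0.00741). COL3A1, another, rose in KD (1.23 ± 0.31, edgeR adjusted p = 0.00172), with -0.62 ± 0.56 (SE, edgeR adjusted p = 0.376) in OE. VWF, the von Willebrand factor of endothelium, rose in OE (0.51 ± 0.11, edgeR adjusted p = 6.14e-04), with 0.10 ± 0.11 (SE, edgeR adjusted p = 0.468) in KD. DCN, LUM and CDH5 never had more than 3 counts in a sample. The whole list summed to 16.9 to 17.7 CPM in NT, 23.4 to 25.2 in KD, 15.1 to 16.5 in EV and 19.9 to 21.9 in OE.

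Interferon mRNA was nearly absent. Of 8 interferon genes, 5 had no count in any sample, and IFNB1, IFNL1 and IFNL3 never had more than 2. The sum over all 8 was 0 to 4 counts in NT, 0 to 1 in KD and 0 in EV and OE, which at this depth limits the level and does not show absence. Both chains of the type I receptor were detected, with IFNAR1 at 50.4 ± 1.02 CPM (SD, n = 2) in NT and IFNAR2 at 3.18 ± 0.170 CPM (SD, n = 2). For the lambda receptor, IFNLR1 had 0 counts in all 10 samples and IL10RB, its shared chain, had 2 to 14 counts a sample. Of the 5 receptor genes tested, 2 rose and 2 fell in KD (40% each, against 29.1% and 28.4% of all genes), and none rose and 1 fell in OE (20%, against 26.4%). IFNAR2 rose in KD, by a log2 fold change of 0.77 ± 0.15 (SE, edgeR adjusted p = 1.07e-04), and IFNAR1 rose there by 0.25 ± 0.057 (SE, edgeR adjusted p = 5.10e-04). The interferon gamma receptor genes fell in KD, IFNGR1 by a log2 fold change of -0.56 ± 0.088 (SE, edgeR adjusted p = 6.26e-06) and IFNGR2 by one of -0.28 ± 0.089 (SE, edgeR adjusted p = 0.0101). IFNAR1 fell in OE, with a log2 fold change of -0.17 ± 0.057 (SE, edgeR adjusted p = 0.0177).

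Several members that interferon is known to induce strongly were close to the detection limit in every line. The 11 members with a mean under 1 CPM over all samples were IRF9, IFIT1, IFIT2, IFIT3, MX2, RSAD2, IFI27, IFI44, IFI44L, OAS2 and OASL, a grouping made after the values were seen. Their levels summed to 5.24 and 5.72 CPM in NT and to 4.75, 5.05 and 4.54 CPM in KD. In EV the sum was 2.89 and 2.72 CPM, and in OE it was 1.91, 2.31 and 2.17 CPM. The shRNA samples lay above all samples of the cDNA arm in this sum, which rested on only 48 to 144 counts a sample. No such sum was made for other genes of low level. Singly, only IFIT2, IFIT3 and IFI44 did so among tested members (8.33%, against 5.7% of all genes), and the untested OAS2. IFI27 was highest in EV. RSAD2 averaged 0.348 CPM in NT and 0.356 in EV, and MX2 0.159 in KD and 0.137 in OE. The leukocyte marker sum given above was highest in NT as well, with KD and EV overlapping. Its part in the sum of the 11 members was not tested. Per kilobase of exon, the span between members was wide. HLA-C was highest, at 51.6 CPM per kb in NT and 88.7 in OE. The lowest were the untested MX2 at 0.00136 in NT and OAS2 at 0 in OE. IFIT3, a tested member, was at 0.153 in NT and 0.0299 in OE.

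**Figure D2:**
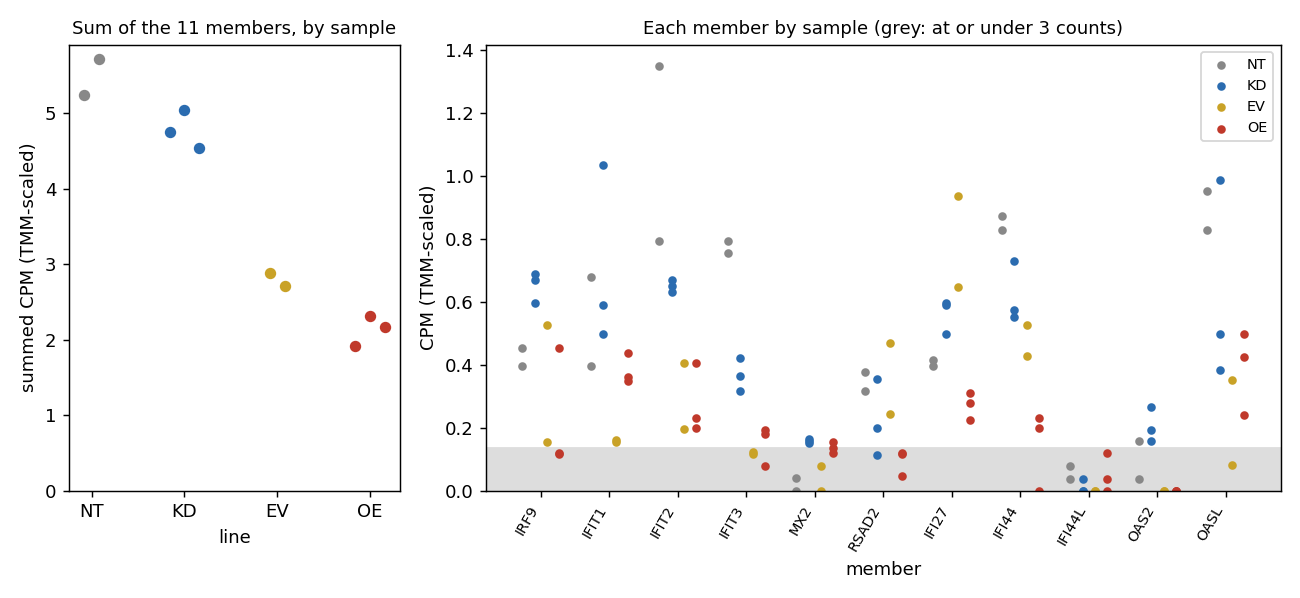
Left, the summed level of the 11 members with a mean under 1 CPM in each sample (y axis, CPM) by line, and right, each of these members by sample, with the zone of at most 3 counts in grey. All 5 shRNA samples sum to between 4.54 and 5.72 CPM and all 5 samples of the cDNA arm to between 1.91 and 2.89. Single members do not all follow the sum, and IFI27 is highest in EV.

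The other 4 of the 40 members did not pass the filter and are given as raw counts. MX2, a GTPase that blocks viral nuclear entry, had 0 and 1 counts in NT, 4, 4 and 5 in KD, 2 and 0 in EV and 3, 3 and 4 in OE. RSAD2, the antiviral enzyme viperin, had 10 and 8, then 3, 9 and 6, then 12 and 6, then 3, 1 and 3 in the same order of lines. IFI44L never exceeded 3 counts. OAS2, a synthetase of the second messenger that activates RNase L, had 1 and 4 counts in NT and 5, 4 and 8 in KD and none in any of the 5 samples of the cDNA arm.

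Among the 36 tested members, 12 rose and 10 fell in KD versus NT at an adjusted p under 0.05 in edgeR's quasi-likelihood test, or 33.3% and 27.8%, against 29.1% and 28.4% of all genes tested. The members were thus called about as often as genes in general in KD. In OE versus EV, 14 rose and 4 fell, or 38.9% and 11.1%, against 25.6% and 26.4% of all genes. The median log2 fold change of the 36 was 0.16 in KD versus NT, against -0.020 over all genes, and 0.20 in OE versus EV, also against -0.020. Scaled by library size only, 12 members rose and 5 fell in OE, with 3354 genes higher and 5839 lower against 4411 and 4545. In bulk RNA, a change in every cell and a change in the share of cells with the mRNA cannot be told apart. In both arms, which share no samples, 9 members rose, or 25% against 13.7% of all genes. These 9 were 75% of the members that rose in KD and 64.3% of those that rose in OE. They were IFITM1, IFITM2, IFITM3, ISG15, USP18, TAP1, TAPBP, HLA-C and IRF3. The summed level of the stroma and endothelium markers given above was likewise higher in KD and in OE than in their controls, without overlap, and its part in these members' changes was not tested. JAK1 alone fell in both (2.78%, against 12.7% of all genes). BST2 rose in KD and fell in OE (2.78%, against 4.65%), and HLA-B, IFI35 and IRF7 fell in KD and rose in OE (8.33%, against 3.71%). The change in OE exceeded that in KD for 11 members and was below it for 3, or 30.6% and 8.33%, against 20.3% and 24% of all genes. At a stricter adjusted p under 0.0001, 6 members rose and 5 fell in KD, against 16.4% and 12.8% of all genes, and 11 rose and 2 fell in OE, against 11.6% and 10.3%. At that limit 1 member was higher and 0 lower in EV than in NT, against 5.25% and 2.91% of all genes, and 2 were higher and 2 lower in the difference between the arms, against 6.94% and 8.98%.

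**Figure D3:**
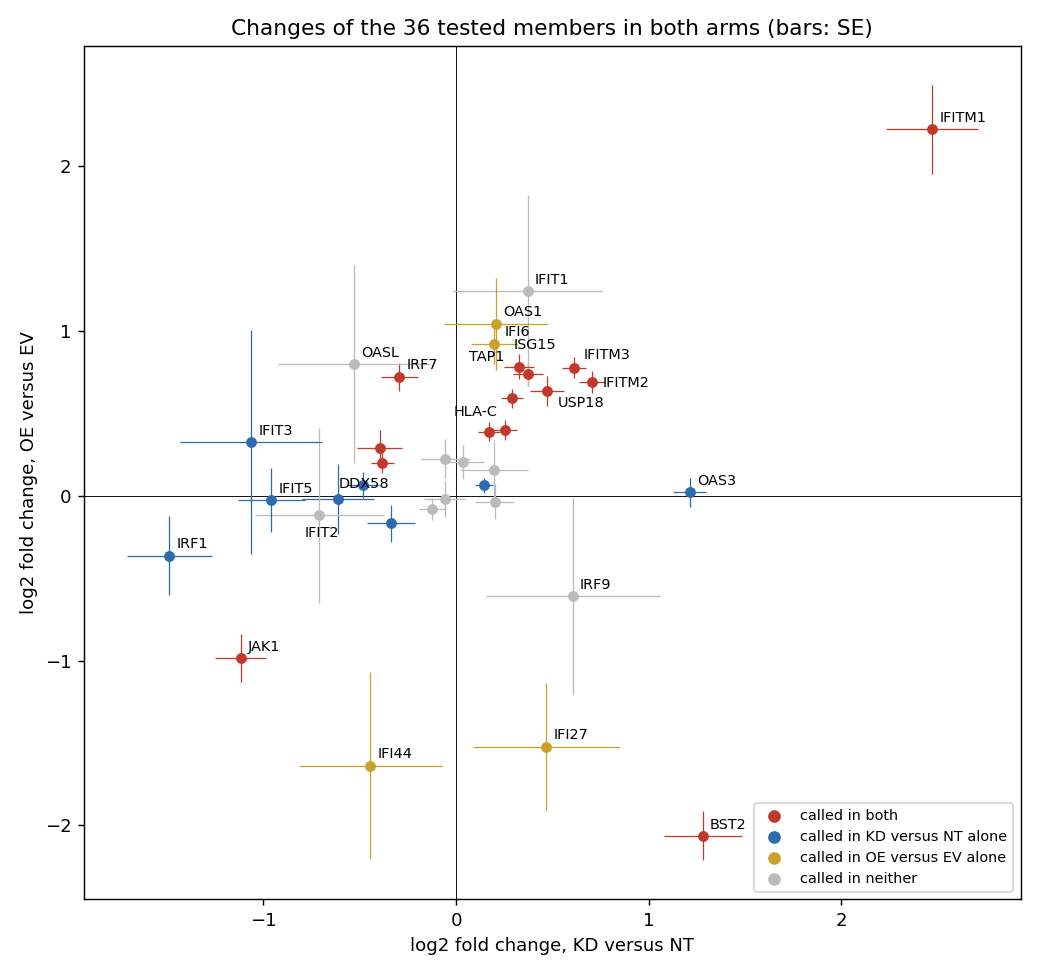
The log2 fold change of each of the 36 tested members in KD versus NT (x axis) and in OE versus EV (y axis), with SE as bars and colours for the comparisons in which the adjusted p was under 0.05. IFITM1 stands at the upper right (2.47 and 2.22), JAK1 at the lower left (-1.12 and -0.98) and BST2 at the lower right (1.28 and -2.06).

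The 3 IFITM genes rose in both arms and were not called between the controls. They lie together at 11p (IFITM1 at chr11:310041-315272 of GRCh38) and code for small membrane proteins that hinder the entry of enveloped viruses. IFITM1 was at 0.604 and 0.834 CPM in NT and 4.41, 4.10 and 3.52 CPM in KD. It was at 0.390 and 0.771 CPM in EV and 2.91, 2.81 and 2.44 CPM in OE. Every altered sample was above every control sample, by a log2 fold change of 2.47 ± 0.24 (SE, edgeR adjusted p = 3.58e-09) in KD and 2.22 ± 0.27 (SE, edgeR adjusted p = 2.95e-07) in OE. The change between the controls was -0.31 ± 0.38 (SE, edgeR adjusted p = 0.569), and the difference between the arms was -0.25 ± 0.42 (SE, edgeR adjusted p = 0.663). IFITM2 was at 22.9 and 23.99 CPM in NT, 39.1, 39.2 and 36.4 in KD, 22.5 and 23.6 in EV and 37.4, 38.2 and 35.9 in OE. Again no altered sample overlapped a control, and the log2 fold changes were 0.70 ± 0.067 (SE, edgeR adjusted p = 3.11e-09) and 0.69 ± 0.068 (SE, edgeR adjusted p = 1.25e-08). IFITM3 was at 46.6 and 48.7 CPM in NT, 68.6, 79.5 and 70.5 in KD, 45.4 and 47.9 in EV and 78.3, 83.00 and 78.6 in OE, with log2 fold changes of 0.61 ± 0.063 (SE, edgeR adjusted p = 1.02e-08) and 0.78 ± 0.063 (SE, edgeR adjusted p = 6.63e-10). All 6 calls held with every sample left out in turn and under every alternative that tested them. The 3 genes are near-identical in parts of their sequence and how reads with several matches were counted is not given in the sources used here, so the split among them is uncertain. Of IFITM1, 21.1% of exon bases also belong to another annotated gene on the same strand. The 72 other tested genes within 5 Mb had a median log2 fold change of 0.11 in KD versus NT and 0.29 in OE versus EV, below the values of all 3.

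ISG15 and its protease rose in both arms, while HERC5 and HERC6 did not. ISG15 is a ubiquitin-like protein joined to other proteins in the antiviral state. It was at 17.7 and 17.3 CPM in NT, 23.02, 23.8 and 21.1 in KD, 20.8 and 19.3 in EV and 32.2, 35.1 and 33.2 in OE. The OE samples were above all others and the NT samples below all others. Its log2 fold changes were 0.37 ± 0.078 (SE, edgeR adjusted p = 2.43e-04) in KD and 0.74 ± 0.075 (SE, edgeR adjusted p = 2.16e-08) in OE, and the change in OE was the larger by 0.37 ± 0.11 (SE, edgeR adjusted p = 0.00767), a call lost when EV replicate 2 was left out or libraries were scaled by size only (0.23). USP18, which removes ISG15 from proteins and dampens receptor signalling, was at 11.3 and 11.8 CPM in NT, 15.5, 16.7 and 15.8 in KD, 10.8 and 10.9 in EV and 16.95, 18.2 and 15.6 in OE. Its values in KD and OE lay above both controls without overlap, with log2 fold changes of 0.47 ± 0.089 (SE, edgeR adjusted p = 7.95e-05) and 0.64 ± 0.091 (SE, edgeR adjusted p = 3.00e-06). UBE2L6, the conjugating enzyme for ISG15 and no member of the list, rose by 1.502 ± 0.20 (SE, edgeR adjusted p = 1.49e-06) in OE and by 0.98 ± 0.19 (SE, edgeR adjusted p = 1.06e-04) in KD. HERC5, the main ISG15 ligase, was at 6.79 and 7.51 CPM in NT, 6.09, 5.01 and 5.84 in KD, 9.75 and 10.7 in EV and 8.46, 10.2 and 8.82 in OE. It fell in KD, with a log2 fold change of -0.34 ± 0.12 (SE, edgeR adjusted p = 0.0233), lost without NT replicate 2, without KD replicate 2 or with DESeq2, and the value in OE was -0.17 ± 0.11 (SE, edgeR adjusted p = 0.224). HERC6, its paralogue, stayed between 9.45 and 12.6 CPM in all samples, with -0.060 ± 0.11 (SE, edgeR adjusted p = 0.659) in KD and -0.019 ± 0.11 (SE, edgeR adjusted p = 0.901) in OE.

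**Figure D4:**
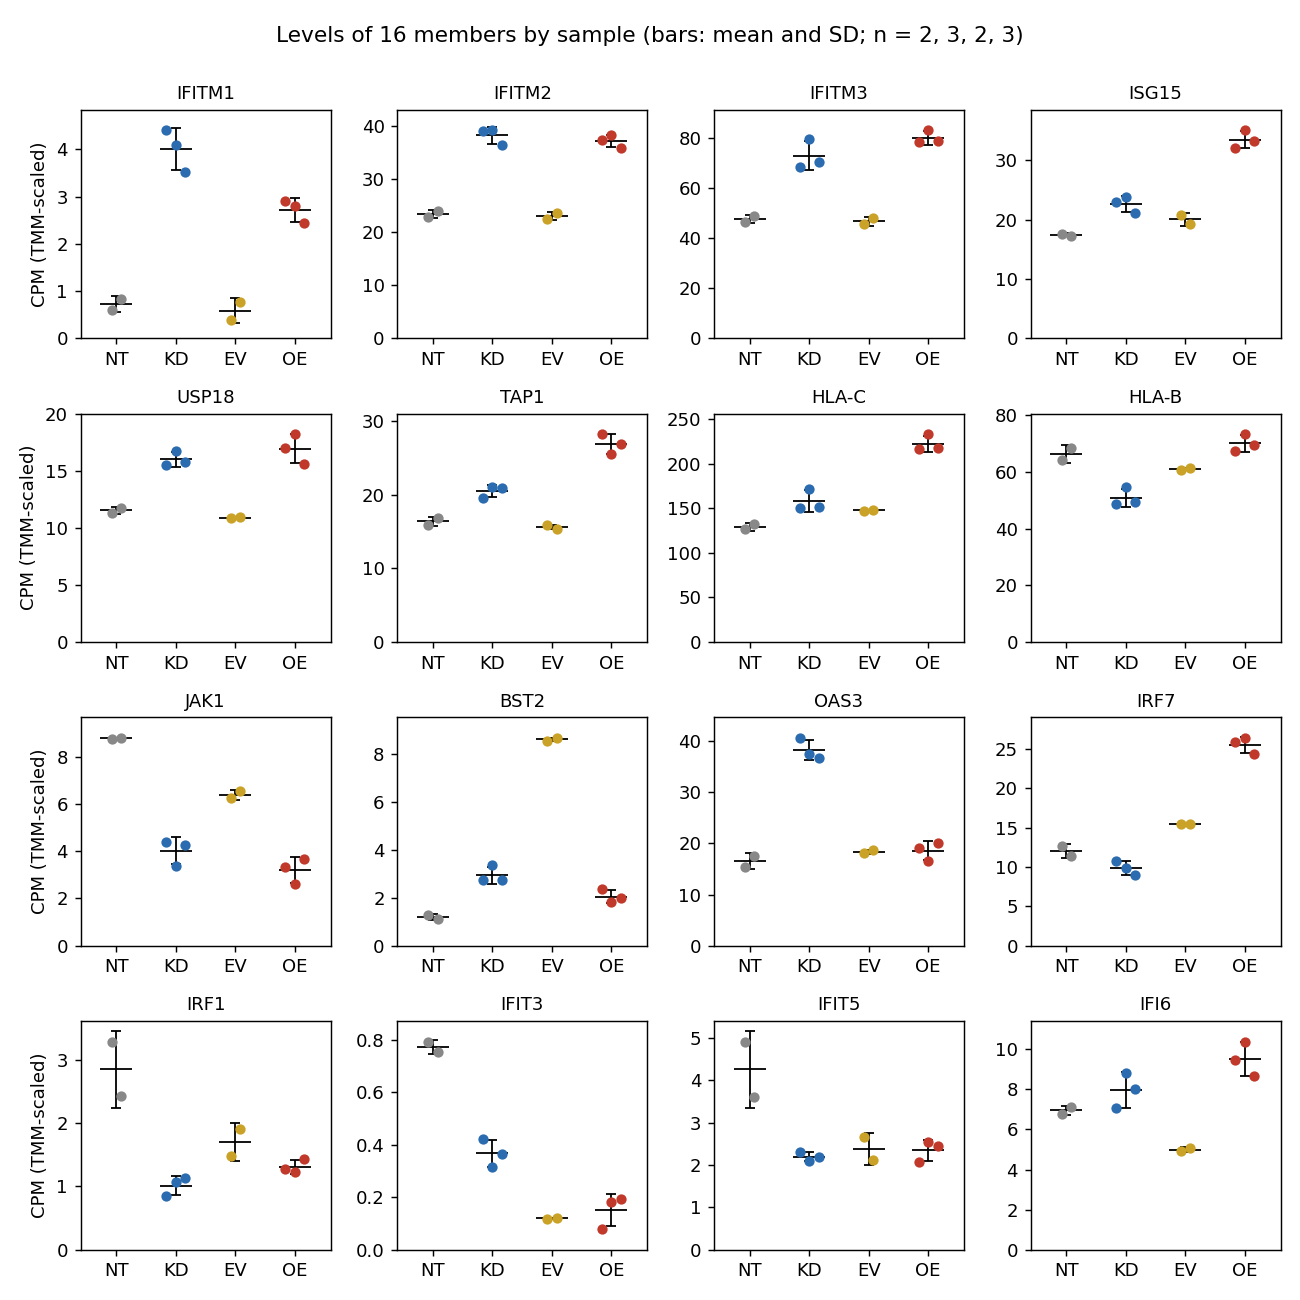
CPM (y axes, each from 0) of 16 members in every sample by line, with the mean and SD as bars. IFITM1, IFITM2, IFITM3 and USP18 are higher in KD and OE than in their controls, JAK1 is lower in both, OAS3 is high in KD alone, BST2 in EV alone and IRF7 in OE.

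Of the 6 genes of MHC class I and peptide loading, 4 rose in KD and 4 in OE, or 66.7% in each, against 29.1% and 25.6% of all genes, and HLA-B went in opposite directions. B2M, the light chain of class I molecules, was at 115 ± 3.14 CPM (SD, n = 2) in NT, 127 ± 2.39 CPM (SD, n = 3) in KD, 122 ± 4.68 CPM (SD, n = 2) in EV and 127 ± 1.36 CPM (SD, n = 3) in OE. It rose in KD by 0.14 ± 0.047 (SE, edgeR adjusted p = 0.0113), a call lost without NT replicate 1, and its value in OE was 0.064 ± 0.047 (SE, edgeR adjusted p = 0.269). HLA-C, a heavy chain, was at 126 and 132.3 CPM in NT, 151, 172 and 151 in KD, 147 and 148 in EV and 216, 233 and 218 in OE. The OE samples were above all others, and the log2 fold changes were 0.29 ± 0.056 (SE, edgeR adjusted p = 1.07e-04) in KD and 0.59 ± 0.056 (SE, edgeR adjusted p = 6.99e-09) in OE. HLA-B, another heavy chain, was at 64.1 and 68.5 CPM in NT, 48.6, 54.6 and 49.4 in KD, 60.8 and 61.3 in EV and 67.4, 73.3 and 69.7 in OE. It fell in KD, with a log2 fold change of -0.38 ± 0.059 (SE, edgeR adjusted p = 5.78e-06) and rose in OE by 0.20 ± 0.059 (SE, edgeR adjusted p = 0.00691), the latter lost with scaling by library size only (0.10). The difference between the arms was 0.58 ± 0.084 (SE, edgeR adjusted p = 4.29e-06). HLA-B and HLA-C share long stretches, and 30.7% of HLA-B exon bases belong to a pseudogene on the same strand as well, so their split is uncertain.

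TAP1, a subunit of the transporter that carries peptides to class I molecules, was at 15.96 and 16.8 CPM in NT, 19.6, 21.1 and 20.96 in KD, 15.8 and 15.4 in EV and 28.2, 25.6 and 26.9 in OE. It rose by 0.33 ± 0.078 (SE, edgeR adjusted p = 8.89e-04) in KD and by 0.78 ± 0.078 (SE, edgeR adjusted p = 1.42e-08) in OE, and the change in OE was the larger, by 0.46 ± 0.11 (SE, edgeR adjusted p = 0.00150). TAP2, the partner subunit, spanned 9.94 to 13.2 CPM over all samples, with 0.20 ± 0.10 (SE, edgeR adjusted p = 0.0999) in KD and -0.035 ± 0.10 (SE, edgeR adjusted p = 0.805) in OE. The pair therefore did not pass the test together. TAPBP, the loading chaperone tapasin, was at 94.6 ± 0.748 CPM (SD, n = 2) in NT, 106 ± 8.59 CPM (SD, n = 3) in KD, 94.3 ± 1.22 CPM (SD, n = 2) in EV and 123 ± 4.40 CPM (SD, n = 3) in OE. It rose by 0.17 ± 0.057 (SE, edgeR adjusted p = 0.0139) in KD, a call lost without NT replicate 1, NT replicate 2 or KD replicate 2 (down to 0.10), and by 0.39 ± 0.057 (SE, edgeR adjusted p = 4.25e-06) in OE. These 6p genes lie among 162 to 170 tested genes within 5 Mb whose median was 0.23 in OE versus EV, below the OE values of HLA-C, TAP1 and TAPBP and above those of HLA-B and TAP2.

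Among the kinase and transcription factors, JAK1 fell in both arms. JAK1, the kinase on the interferon receptors, was at 8.75 and 8.78 CPM in NT, 4.41, 3.39 and 4.28 in KD, 6.24 and 6.53 in EV and 3.31, 2.62 and 3.68 in OE. NT was above all other samples and the altered samples did not overlap their controls. The log2 fold changes were -1.12 ± 0.13 (SE, edgeR adjusted p = 1.16e-07) in KD and -0.98 ± 0.15 (SE, edgeR adjusted p = 5.60e-06) in OE, and both held with each sample left out. Its 32 tested neighbours within 5 Mb had medians of -0.27 and -0.28, of the same sign and smaller. STAT2, the interferon-specific STAT, ranged from 28.5 to 35.5 CPM, with -0.12 ± 0.067 (SE, edgeR adjusted p = 0.124) in KD and -0.083 ± 0.067 (SE, edgeR adjusted p = 0.315) in OE. IRF9, its DNA-binding partner, had 3 to 18 counts a sample, with 0.61 ± 0.45 (SE, edgeR adjusted p = 0.261) and -0.61 ± 0.60 (SE, edgeR adjusted p = 0.413), and the OE value changed sign without EV replicate 2.

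The IRF factors each had their own pattern. IRF1, an early factor induced by interferon gamma and by NF-kappaB, was at 3.28 and 2.42 CPM in NT, 0.843, 1.07 and 1.13 in KD, 1.48 and 1.91 in EV and 1.28, 1.22 and 1.43 in OE. It was highest in NT and fell in KD, with a log2 fold change of -1.49 ± 0.22 (SE, edgeR adjusted p = 3.41e-06), whereas the value in OE was -0.36 ± 0.24 (SE, edgeR adjusted p = 0.215). The arms differed by 1.13 ± 0.33 (SE, edgeR adjusted p = 0.00722), lost without NT replicate 1, and 22.9% of its exon bases are shared with an antisense gene whose reads cannot be separated if strand was not used. IRF3, the constitutive factor downstream of the RNA sensors, was at 37.6 ± 1.09 CPM (SD, n = 2) in NT, 44.8 ± 2.50 CPM (SD, n = 3) in KD, 36.4 ± 1.74 CPM (SD, n = 2) in EV and 48.1 ± 0.191 CPM (SD, n = 3) in OE, and it rose in both arms, by 0.26 ± 0.062 (SE, edgeR adjusted p = 0.00108) and 0.40 ± 0.063 (SE, edgeR adjusted p = 9.71e-06). IRF3 overlaps BCL2L12 on the other strand over 19.4% of its exon bases. IRF7, the factor that amplifies interferon alpha, was at 12.7 and 11.4 CPM in NT, 10.7, 9.94 and 8.96 in KD, 15.5 and 15.4 in EV and 25.8, 26.4 and 24.3 in OE. The OE samples were above and the KD samples below all others. It rose in OE by 0.72 ± 0.086 (SE, edgeR adjusted p = 2.05e-07) and fell in KD, with a log2 fold change of -0.30 ± 0.095 (SE, edgeR adjusted p = 0.0106), the latter lost without NT replicate 1 or KD replicate 3, and the arms differed by 1.02 ± 0.13 (SE, edgeR adjusted p = 6.09e-07).

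Of the 3 RNA sensors, 1 fell in KD, or 33.3% against 28.4% of all genes, and none was called in OE. DDX58, the gene of RIG-I, was at 3.47 and 3.81 CPM in NT, 2.34, 2.49 and 2.32 in KD, 2.26 and 2.23 in EV and 2.99, 1.81 and 1.82 in OE. Both NT samples stood above all others, and it fell in KD, with a log2 fold change of -0.61 ± 0.19 (SE, edgeR adjusted p = 0.00681), a call lost without NT replicate 2, while the value in OE was -0.020 ± 0.21 (SE, edgeR adjusted p = 0.948). Over 43.2% of its exon bases it overlaps another gene on the same strand. IFIH1, the gene of MDA5, was at 8.24 ± 0.135 CPM (SD, n = 2) in NT, 8.44 ± 0.948 CPM (SD, n = 3) in KD, 9.82 ± 0.161 CPM (SD, n = 2) in EV and 11.3 ± 0.369 CPM (SD, n = 3) in OE, with 0.037 ± 0.11 (SE, edgeR adjusted p = 0.792) in KD and 0.21 ± 0.10 (SE, edgeR adjusted p = 0.0959) in OE. DHX58, the regulator LGP2, was at 7.28 ± 0.373 CPM (SD, n = 2), 7.01 ± 0.922 CPM (SD, n = 3), 9.12 ± 0.787 CPM (SD, n = 2) and 10.7 ± 1.17 CPM (SD, n = 3) in the same order, with -0.056 ± 0.13 (SE, edgeR adjusted p = 0.732) and 0.22 ± 0.12 (SE, edgeR adjusted p = 0.118). Neither was called in either arm.

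BST2, known as tetherin for holding budding viruses at the cell surface, had the widest swings of the effectors. It was at 1.28 and 1.11 CPM in NT and 2.72, 3.35 and 2.72 CPM in KD. It was at 8.54 and 8.64 CPM in EV and 2.35, 1.81 and 1.97 CPM in OE. The EV samples stood far above all others and the NT samples below all others. BST2 rose in KD by a log2 fold change of 1.28 ± 0.20 (SE, edgeR adjusted p = 7.46e-06), and it fell in OE (-2.06 ± 0.15, edgeR adjusted p = 1.01e-10). It was higher in EV than in NT, by 2.84 ± 0.19 (SE, edgeR adjusted p = 2.17e-11). The arms differed by -3.34 ± 0.25 (SE, edgeR adjusted p = 1.20e-10). None of these calls was lost under any alternative or left-out sample. BST2 is at chr19:17402939-17405630, where its 171 tested neighbours had a median of 0.25 in OE versus EV, opposite in sign.

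The IFIT genes, whose proteins bind foreign RNA, each had their highest sample in the shRNA arm. IFIT3 was at 0.792 and 0.755 CPM in NT, 0.421, 0.316 and 0.365 in KD, 0.117 and 0.122 in EV and 0.0798, 0.181 and 0.193 in OE, where EV and OE held 2 to 5 counts a sample. It fell in KD, with a log2 fold change of -1.06 ± 0.37 (SE, edgeR adjusted p = 0.0160), lost without either NT sample and with DESeq2. IFIT2 was at 0.792 and 1.35 CPM in NT, 0.651, 0.671 and 0.630 in KD, 0.195 and 0.406 in EV and 0.199, 0.407 and 0.232 in OE, with -0.71 ± 0.33 (SE, edgeR adjusted p = 0.0737) in KD. IFIT1 was at 0.679 and 0.397 CPM in NT, 1.03, 0.592 and 0.498 in KD, 0.156 and 0.162 in EV and 0.439, 0.362 and 0.348 in OE, and its value in OE was 1.24 ± 0.58 (SE, edgeR adjusted p = 0.0760). IFIT5, the most abundant per kilobase, was at 4.90 and 3.61 CPM in NT, 2.30, 2.09 and 2.19 in KD, 2.65 and 2.11 in EV and 2.07, 2.53 and 2.44 in OE. Its KD, EV and OE samples overlapped and NT stood above them, and it fell in KD, with a log2 fold change of -0.96 ± 0.17 (SE, edgeR adjusted p = 4.35e-05). The value in OE was -0.025 ± 0.20 (SE, edgeR adjusted p = 0.928), and the arms differed by 0.93 ± 0.26 (SE, edgeR adjusted p = 0.00526), lost without NT replicate 1.

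The remaining effectors split. IFI6, a small mitochondrial and endoplasmic reticulum protein that delays cell death, was at 6.79 and 7.11 CPM in NT, 7.05, 8.84 and 8.03 in KD, 4.91 and 5.07 in EV and 9.45, 10.4 and 8.67 in OE. It rose in OE by a log2 fold change of 0.92 ± 0.13 (SE, edgeR adjusted p = 1.48e-06), with 0.20 ± 0.12 (SE, edgeR adjusted p = 0.162) in KD and a difference between arms of 0.73 ± 0.17 (SE, edgeR adjusted p = 0.00147). ISG20, an exonuclease, was at 22.2 and 24.3 CPM in NT, 14.9, 18.3 and 16.7 in KD, 25.97 and 24.5 in EV and 27.2, 25.6 and 26.5 in OE. KD lay below all other samples, and the log2 fold change was -0.48 ± 0.082 (SE, edgeR adjusted p = 2.09e-05), whereas the value in OE was 0.065 ± 0.080 (SE, edgeR adjusted p = 0.521) and the arms differed by 0.55 ± 0.11 (SE, edgeR adjusted p = 3.85e-04). IFI35 was at 8.79 ± 1.33 CPM (SD, n = 2) in NT, 6.67 ± 0.0364 CPM (SD, n = 3) in KD, 8.92 ± 0.867 CPM (SD, n = 2) in EV and 10.9 ± 0.818 CPM (SD, n = 3) in OE, with a fall in KD (-0.40 ± 0.12, edgeR adjusted p = 0.00542) and a rise in OE (0.29 ± 0.11, edgeR adjusted p = 0.0339). The fall was lost without NT replicate 2 (-0.23), and the rise without EV replicate 1, OE replicate 1 or OE replicate 2, with DESeq2, and with scaling by library size only (0.19). IFI27 fell in OE, with a log2 fold change of -1.52 ± 0.39 (SE, edgeR adjusted p = 0.00199), from 0.936 and 0.649 CPM in EV to 0.279, 0.226 and 0.310 in OE, a call lost without EV replicate 1. IFI44 fell there, with a log2 fold change of -1.64 ± 0.56 (SE, edgeR adjusted p = 0.0180), from 0.429 and 0.527 to 0.199, 0 and 0.232 CPM, lost without EV replicate 2 or OE replicate 2. MX1, a GTPase that traps viral nucleocapsids, stayed between 2.08 and 2.83 CPM, with 0.20 ± 0.18 (SE, edgeR adjusted p = 0.353) in KD and 0.16 ± 0.18 (SE, edgeR adjusted p = 0.483) in OE.

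OAS3 rose in KD only, by the test of the difference. It makes the 2-5A messenger that activates RNase L and lies at chr12:112938051-112976460 beside OAS1 and OAS2. OAS3 was at 15.4 and 17.6 CPM in NT, 40.6, 37.5 and 36.7 in KD, 18.1 and 18.7 in EV and 19.1, 16.5 and 20.2 in OE. The 3 KD samples were above all 7 others, which overlapped. The log2 fold change was 1.21 ± 0.085 (SE, edgeR adjusted p = 1.24e-11) in KD and 0.020 ± 0.088 (SE, edgeR adjusted p = 0.868) in OE, and the arms differed by -1.19 ± 0.12 (SE, edgeR adjusted p = 2.69e-08). The 70 tested genes within 5 Mb had a median of 0.092 in KD. OAS1, its neighbour, was at 1.25 and 1.31 CPM in NT, 1.42, 1.85 and 1.19 in KD, 0.624 and 1.26 in EV and 1.87, 2.22 and 1.74 in OE, and rose in OE by 1.04 ± 0.28 (SE, edgeR adjusted p = 0.00309). That call was lost without EV replicate 1 (0.63), and the value was 1.63 without EV replicate 2. OASL, a relative without the enzyme activity, had 2 to 25 counts a sample, with -0.53 ± 0.40 (SE, edgeR adjusted p = 0.261) in KD and 0.80 ± 0.60 (SE, edgeR adjusted p = 0.278) in OE.

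**Figure D5:**
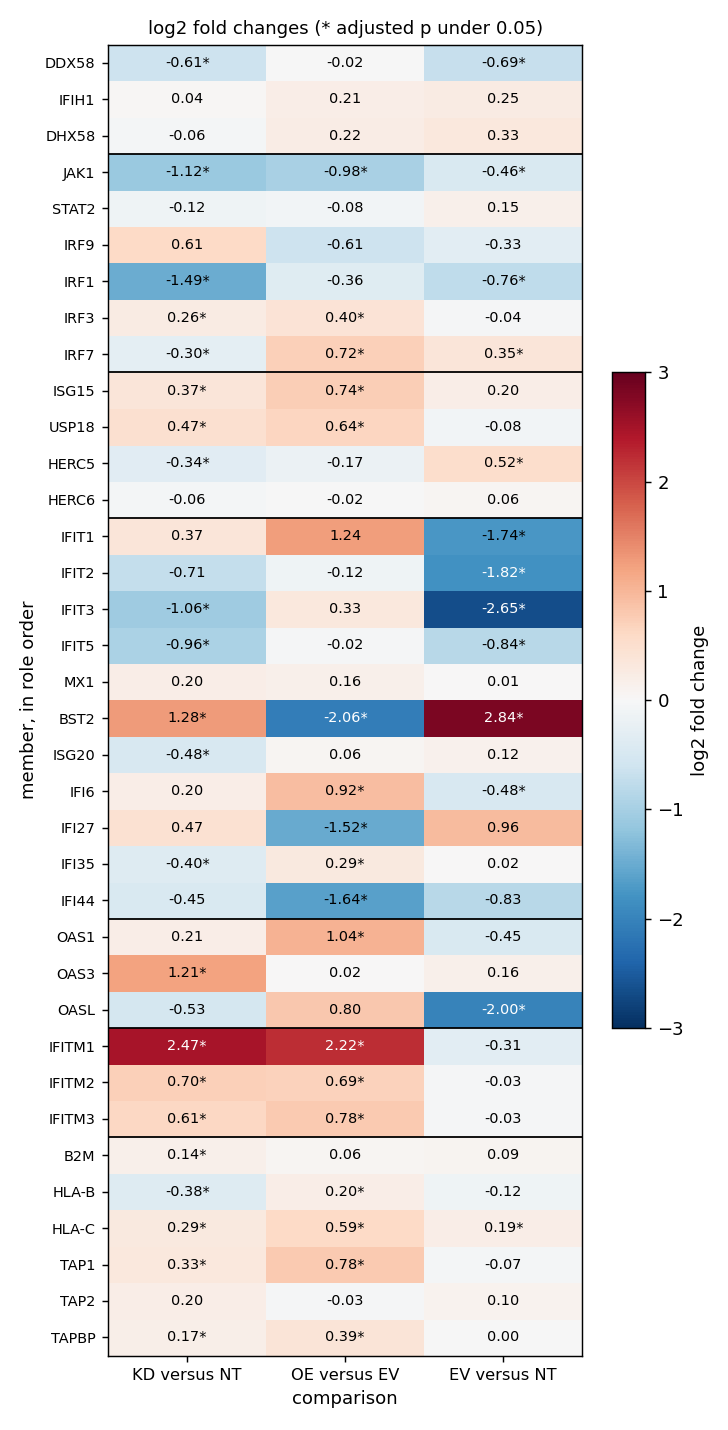
The log2 fold change of the 36 tested members (rows, in role order with lines between roles) in KD versus NT, OE versus EV and EV versus NT, with an asterisk where the adjusted p was under 0.05. The 3 IFITM rows are red in both arms and near 0 between the controls, and IFIT1, IFIT2, IFIT3 and OASL are blue in EV versus NT.

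Between the vector controls, 4 members were higher in EV than in NT and 9 were lower, or 11.1% and 25%, against 18.5% and 15.5% of all genes. In log2 fold change ± SE, higher in EV were BST2 (given above), HERC5 (0.52 ± 0.13, edgeR adjusted p = 0.00249), IRF7 (0.35 ± 0.100, edgeR adjusted p = 0.00767) and HLA-C (0.19 ± 0.062, edgeR adjusted p = 0.0186). Lower in EV were IFIT3 (-2.65 ± 0.52, edgeR adjusted p = 3.60e-04), OASL (-2.00 ± 0.55, edgeR adjusted p = 0.00604), IFIT2 (-1.82 ± 0.44, edgeR adjusted p = 0.00231) and IFIT1 (-1.74 ± 0.58, edgeR adjusted p = 0.0221), with no sample of either line above 1.35 CPM. Also lower were IFIT5 (-0.84 ± 0.19, edgeR adjusted p = 0.00145), IRF1 (-0.76 ± 0.23, edgeR adjusted p = 0.0124), DDX58 (-0.69 ± 0.21, edgeR adjusted p = 0.0125), IFI6 (-0.48 ± 0.14, edgeR adjusted p = 0.0106) and JAK1 (-0.46 ± 0.14, edgeR adjusted p = 0.0130). With 2 samples a group these calls rest on few samples. Leaving out an NT or EV sample left a lone one in that line, so sizes alone are given for such fits. With each sample left out in turn, BST2 stayed at 2.74 to 2.95, HERC5 at 0.45 to 0.59 and IFIT3 at -2.68 to -2.61. IFIT1 ranged from -2.06 to -1.29 and IRF1 from -0.95 to -0.52. OASL, on 9 and 2 counts in EV, moved to -3.39 without EV replicate 1 and to -1.33 without EV replicate 2. Of the 9 members that rose in both arms, HLA-C alone was called here, and the others included IFITM2 at -0.027 ± 0.076 (SE, edgeR adjusted p = 0.825), IFITM3 at -0.029 ± 0.070 (SE, edgeR adjusted p = 0.794), TAP1 at -0.069 ± 0.088 (SE, edgeR adjusted p = 0.589) and ISG15 at 0.20 ± 0.086 (SE, edgeR adjusted p = 0.0817).

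The samples were also set apart by kind of vector, both shRNA lines against both cDNA lines. All 5 shRNA samples lay above all 5 others for IFIT2, IFIT3 and IFI44, or 8.33% of the members against 5.7% of all genes. They lay below all 5 others for IFIH1, DHX58, IRF7, HERC5 and ISG20, or 13.9% against 6.78%. The RNA sensor IFIH1 was thus at 7.38 to 9.19 CPM in the shRNA lines and at 9.71 to 11.8 CPM in the cDNA lines. Single lines also stood apart. NT was highest for 7 members (19.4%, against 18.7% of all genes), namely DDX58, IFI44, IFIT2, IFIT3, IFIT5, IRF1 and JAK1, and lowest for 4 (11.1%, against 18.7%), namely B2M, BST2, HLA-C and ISG15. KD was highest for IFITM1, IRF9 and OAS3 (8.33%, against 13.8%) and lowest for 7 (19.4%, against 11.8%), namely HERC5, HLA-B, IFI35, IRF1, IRF7, ISG20 and STAT2. EV was highest for BST2 and IFI27 (5.56%, against 4.96%) and lowest for IFI6, IFIT1, TAP1 and USP18 (11.1%, against 3.74%). OE was highest for 8 (22.2%, against 18.3%), namely HLA-C, IFI35, IFIH1, IRF3, IRF7, ISG15, TAP1 and TAPBP, and lowest for IFI27 and IFI44 (5.56%, against 17.3%).

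The rest of the pathway was read from 6 further lists of 113 genes, of which 110 were in the table and 79 were tested. In KD versus NT 22 rose and 29 fell, or 27.8% and 36.7%, against 29.1% and 28.4% of all genes. In OE versus EV 25 rose and 16 fell, or 31.6% and 20.3%, against 25.6% and 26.4%. The lists' own shares, given next, are to be read against the same shares of all genes. Of 32 tested further interferon-stimulated genes, 10 rose and 8 fell in KD (31.2% and 25%) and 10 rose and 7 fell in OE (31.2% and 21.9%). TNFSF10, the death ligand TRAIL, rose in KD by 1.87 ± 0.27 (SE, edgeR adjusted p = 2.32e-06), from 0.641 and 0.477 to 1.99, 2.29 and 1.92 CPM. TRIM22, an antiviral ubiquitin ligase, fell in OE, with a log2 fold change of -1.70 ± 0.56 (SE, edgeR adjusted p = 0.0128). That rested on 15 and 8 counts in EV and 4, 3 and 3 in OE. Of 13 tested sensors and adaptors, 6 rose and 5 fell in KD (46.2% and 38.5%) and 6 rose and 3 fell in OE (46.2% and 23.1%). TRAF3, an adaptor between the sensors and IRF3, rose in OE by 1.91 ± 0.049 (SE, edgeR adjusted p = 2.03e-19), from 68.1 and 71.2 to 268, 257 and 262 CPM. TLR3, the endosomal receptor for double-stranded RNA, fell in KD, with a log2 fold change of -2.17 ± 0.55 (SE, edgeR adjusted p = 0.00161) from 1.17 and 0.397 CPM in NT. It also fell in OE (-2.14 ± 0.83, edgeR adjusted p = 0.0344), on only 6 and 10 counts in EV and 4, 1 and 0 in OE. IFI16, a DNA sensor, fell in KD, with a log2 fold change of -1.84 ± 0.39 (SE, edgeR adjusted p = 2.56e-04). It was also lower in EV against NT (-2.99 ± 0.52, edgeR adjusted p = 9.25e-05), with 41 and 34 counts in NT and 8 and 1 in EV. For SAMD9, an antiviral factor, the EV value was the lower (-1.47 ± 0.54, edgeR adjusted p = 0.0369), on 18 and 11 counts in NT and 6 and 4 in EV. Of 8 tested genes of JAK-STAT signalling, none rose and 3 fell in KD (37.5%), and 2 rose and 4 fell in OE (25% and 50%). Of 13 other antigen presentation genes, 2 rose and 6 fell in KD (15.4% and 46.2%), while 5 rose (38.5%) and none fell in OE. NLRC5, the activator of class I genes, fell in KD, with a log2 fold change of -0.93 ± 0.15 (SE, edgeR adjusted p = 8.40e-06) and rose in OE by 0.54 ± 0.15 (SE, edgeR adjusted p = 0.00427).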

How the data were processed

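Gene counts per sample were deposited by the authors, who trimmed reads with BBDuk and aligned them with STAR (version 2.6.0a) to hg38 with Ensembl annotation. The strand setting and the treatment of reads with several matches are not given in the sources used here. All 10 samples entered 1 fit in edgeR (version 4.0.16, R 4.3.3) with a mean for each line, TMM scaling and the filterByExpr filter. KD versus NT, OE versus EV, EV versus NT and the difference between the arms were tested by the quasi-likelihood test, with Benjamini-Hochberg adjustment over 17230 genes and a threshold of 0.05. Values are TMM-scaled CPM. Members, role lists and pathway lists were chosen with earlier results of these data known. All members are named. Pathway genes are named where called with a log2 fold change of 1 or more in size in KD versus NT, OE versus EV or EV versus NT, at most 6 per list and comparison. Others (the interferon receptor genes, NLRC5, NFKBIA, NFKB1, NFKB2, ICAM1, HLA-DRA and markers) were picked after their values were seen. Positions and exon lengths are from GENCODE 44 on GRCh38, whose release differs from that of the counts, and DDX58 is RIGI there. Promoters are from RefSeq. The test was tried on simulated counts first. Alternatives were DESeq2 (1.42.0), limma-voom (3.58.1), other scalings, filters and thresholds, a replicate block and leaving out each sample.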

Additional observations from a re-analysis of the deposited data

Results flagged for a closer look

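For 14 of the 36 tested members (11 higher or 30.6%, against 20.3% of all genes, and 3 lower or 8.33%, against 24%), the change in OE versus EV differed from that in KD versus NT by edgeR's test of the difference itself. The values are OE minus KD, on the log2 scale. The largest was BST2 at -3.34, followed by IFI27 at -1.99 and OAS3 at -1.19, which were lower in the OE arm's change. Higher in it were IRF1 at 1.13, IRF7 at 1.02, IFIT5 at 0.93 and IFI6 at 0.73. So were IFI35 at 0.68, HLA-B at 0.58 and ISG20 at 0.55. TAP1 at 0.46, ISG15 at 0.37, HLA-C at 0.30 and TAPBP at 0.22 were the smallest, and the call for TAPBP was lost in 7 of 10 fits that left out a sample, those without NT replicate 1 or 2, KD replicate 1 or 3, EV replicate 1 or 2, or OE replicate 2. With scaling by library size only, TAPBP (0.087, edgeR adjusted p = 0.335), HLA-C (0.17, edgeR adjusted p = 0.0513) and ISG15 (0.23) were no longer called. IFIT5 and IRF1 rested on NT replicate 1, and ISG15 on EV replicate 2.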

How the results depend on the processing

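Of 1370 values under alternatives other than leaving out a sample, 1280 kept direction and side of the threshold, 74 lost the call, 7 gained it and 9 changed sign. Of 1440 with a sample left out, these were 1341, 51, 11 and 37. No sign change touched a call. An adjusted p under 0.0001 left 6 members higher and 5 lower in KD, 2 lower in OE, 1 higher and 0 lower in EV versus NT, and 2 higher in the difference between arms. A minimum of 1.5-fold left 5 and 5 in KD, 1 higher in EV versus NT and 5 higher in the difference. The share of all genes at that fold was not computed. Requiring 10 counts in every sample left 2 lower in OE and 5 lower in EV versus NT, where 4307 and 2665 of 14428 genes were lower. IFI27, IFI44, IFIT1, IFIT2, IFIT3 and OASL had fewer than 10 counts in some sample and were not tested there. Scaling by library size only moved the median of all genes in OE versus EV to -0.12 and in the difference to -0.15. It gave 3354 genes higher and 5839 lower in OE against 4411 and 4545. In the difference it left 5 members lower, with 5612 of all genes lower against 4139. With that scaling, ISG20, OAS3 and B2M turned to -0.033, -0.077 and -0.034 in OE. JAK1, STAT2 and HERC6 turned to -0.0018, -0.094 and -0.094 in the difference. Without a filter, TAPBP turned to 0.0059 in EV versus NT. The cause of these sign changes was not tested.

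The deviations of same-numbered samples from their line means had a mean r of -0.0028 over 13 pairs, against 0.0016 over 24 others. The ranges were -0.044 to 0.078 and -0.081 to 0.063. Deviations within a line sum to 0, which ties the pairs to each other. These means therefore cannot decide whether same-numbered samples deviated together. With a replicate block, 13 members rose and 10 fell in KD, against 5051 and 4866 of all 17230 genes. In OE 15 rose and 4 fell, against 4508 and 4581. In EV versus NT 4 were higher and 9 lower, against 3342 and 2790. In the difference these were 11 and 3, against 3606 and 4283. DDX58 and TAP2 turned to 0.047 and 0.014 in OE.

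Leaving out an NT or EV sample left a lone one in that line, which is assumed to vary like the other lines. Counts of called members are therefore not given for such fits. With a sample left out, 3 to 5 members had all shRNA samples highest, the high of 5 without OE replicate 1. Fewer values then have to stand apart, and the share of all genes was not computed. Over the fits with each sample left out in turn, the ranges that crossed 0 were all of changes not called. In KD they were IFIH1 -0.030 to 0.12, DHX58 -0.15 to 0.024 and IFIT1 -0.0032 to 0.81. In OE they were DDX58 -0.31 to 0.11, IRF9 -1.48 to 0.49, HERC6 -0.12 to 0.089, IFIT2 -0.54 to 0.49, IFIT5 -0.18 to 0.17, OAS3 -0.041 to 0.097 and TAP2 -0.093 to 0.063. In EV versus NT they were IRF9 -1.42 to 0.30, IRF3 -0.10 to 0.0044, HERC6 -0.0058 to 0.11, MX1 -0.095 to 0.13, IFI35 -0.13 to 0.18, IFITM1 -0.87 to 0.095, IFITM2 -0.060 to 0.0073, IFITM3 -0.066 to 0.0037 and TAPBP -0.017 to 0.0035. In the difference they were STAT2 -0.019 to 0.083, HERC6 -0.060 to 0.15, MX1 -0.15 to 0.071, IFITM1 -0.64 to 0.31 and IFITM2 -0.046 to 0.022. Depth limits the 11 members under 1 CPM, where single counts move the values.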

Other observations

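4 of 8 tested targets of NF-kappaB, the inflammatory transcription factor that also drives IRF1, were at their highest in NT. Of the 8, 2 rose and 5 fell in KD versus NT, or 25% and 62.5%, against 29.1% and 28.4% of all genes. In OE versus EV 2 rose and 1 fell, or 25% and 12.5%, against 25.6% and 26.4%. None was higher and 5 were lower in EV than in NT, or 62.5%, against 15.5% lower among all genes. RELB, a subunit of the factor itself, was at 2.72 and 2.70 CPM in NT, 0.575, 0.907 and 0.896 in KD, 0.663 and 1.05 in EV and 1.04, 1.04 and 0.542 in OE, which is -1.66 ± 0.29 (SE, edgeR adjusted p = 9.92e-05) on the log2 scale in EV versus NT. TNFAIP3, the brake A20, was at 2.83 and 1.99 CPM in NT, 1.15, 1.18 and 1.06 in KD, 1.01 and 0.811 in EV and 0.997, 0.724 and 1.04 in OE. BIRC3, an inhibitor of apoptosis, was at 2.98 and 2.78 CPM in NT, 0.460, 0.986 and 0.365 in KD, 1.21 and 0.974 in EV and 0.359, 0.498 and 0.735 in OE. CCL20, a chemokine, had 20 and 12 counts in NT, 2 and 0 in EV and 0 in all 6 other samples. The NT samples were above all others in all 4 genes, as they were in 18.7% of all genes tested. Among the members this held for 7, or 19.4%, close to that share. They were DDX58, IFI44, IFIT2, IFIT3, IFIT5, IRF1 and JAK1. The other 4 were not highest in NT. NFKBIA, the inhibitor of the factor, rose in KD (log2 fold change ± SE 0.33 ± 0.057, edgeR adjusted p = 2.02e-05) and in OE (0.34 ± 0.057, edgeR adjusted p = 2.90e-05). NFKB2, a subunit, rose in KD (0.39 ± 0.069, edgeR adjusted p = 3.53e-05). NFKB1, another, rose in OE (0.22 ± 0.072, edgeR adjusted p = 0.0114) and was lower in EV than in NT (-0.49 ± 0.077, edgeR adjusted p = 2.49e-05). ICAM1, an adhesion molecule, fell in KD (-0.19 ± 0.077, edgeR adjusted p = 0.0414). The MHC class II gene HLA-DRA had 10 and 13 counts in NT and 0 to 3 in the other samples.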
